A study of Homo sapiens with 40 samples.

Results

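The genes described here are 59 KRAB zinc finger genes, taken by symbol from a count table of 57992 genes. They were followed through 40 RNA-seq libraries of HEK293T cells, a human embryonic kidney line, in which RNA near a targeted peroxidase was biotinylated and pulled down. The peroxidase APEX2 was placed at 4 sites by its fusion partner: MITO in the mitochondrial matrix, ERM on the cytosolic face of the endoplasmic reticulum membrane, NES in the cytosol and LMNB1 at the nuclear lamina. Each enriched library, made from RNA bound to streptavidin beads, was compared with the input RNA of the same cells.

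In the s6G arms of all 4 constructs the cells had 100 µM of the thionucleoside s6G (6-thioguanosine) for 5 h, then 0.5 mM biotin-phenol and 1 mM H2O2. In the s4U arm, run with MITO alone, the thionucleoside was 100 µM s4U (4-thiouridine). The APEX-only arms of MITO and LMNB1 had biotin-phenol and H2O2 but no thionucleoside. The unlabelled arms of the same constructs had H2O2 but neither thionucleoside nor biotin-phenol. Each arm had 2 enriched and 2 input libraries, and ERM had 4 of each. ERM and NES had the s6G arm alone, so the effect of s6G and that of peroxidase labelling cannot be told apart there. The treatment field of the 4 enriched ERM and the 4 LMNB1 s6G libraries reads s4U, whereas their titles read s6G, and the titles were followed. All groups were of the same line, libraries were made from polyadenylated RNA, and every group, the unlabelled arms included, had H2O2.

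KRAB zinc finger proteins are the largest family of human transcription factors. An array of zinc fingers binds DNA, often within transposable elements, and the KRAB domain recruits the scaffold protein TRIM28 (KAP1). TRIM28 in turn brings the histone methyltransferase SETDB1 and the NuRD deacetylase complex, which together form silent chromatin. The genes lie mostly in tandem clusters on chromosome 19. Their mRNAs are short-lived and scarce in most cells.

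Of the 59 genes, 35 lay on chromosome 19, 5 each on chromosomes 7 and 12, and 4 on chromosome 10 (GRCh38.p14, RefSeq). Loci of 31 of the 59 overlapped another annotated gene, and the strand setting of the counting is not given in the sources used here. Counts of such genes may include reads of their neighbour. ZNF33A and ZNF33B are close copies on chromosome 10, and reads may be split between them.

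The promoters of 6 of the genes are shown, chosen by enrichment in the NES arm described further on. ZNF91, ZNF14 and ZNF12 had high log2 enrichment there, at 2.74, 2.68 and 2.40. ZNF226, ZNF195 and ZNF224 had low enrichment, at 0.27, 0.06 and -0.07. The ends of the family's range, ZNF460 at 2.86 and ZNF331 at -3.15, are not among the promoters shown. Each is the 100 bases before the annotated start (RefSeq, GRCh38.p14), read 5′ to 3′ on the gene's strand. Capitals mark matches on either strand to any of 3 motifs. The ETS core was searched as CCGGAAG, the CCAAT box by the letters of its name, and the GC box as GGGCGG. Matches of different motifs may abut or overlap and each was counted, and in ZNF91 a GC box abuts an ETS core.
ZNF91, chr19:23395472-23395571, minus strand: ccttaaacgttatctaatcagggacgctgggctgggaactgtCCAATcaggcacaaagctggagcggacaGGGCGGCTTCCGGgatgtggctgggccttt
ZNF14, chr19:19733113-19733212, minus strand: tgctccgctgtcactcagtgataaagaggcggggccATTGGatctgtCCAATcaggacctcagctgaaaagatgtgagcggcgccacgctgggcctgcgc
ZNF12, chr7:6706948-6707047, minus strand: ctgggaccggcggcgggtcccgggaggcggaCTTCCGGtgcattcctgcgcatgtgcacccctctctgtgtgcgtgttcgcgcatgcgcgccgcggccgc
ZNF226, chr19:44165000-44165099, plus strand: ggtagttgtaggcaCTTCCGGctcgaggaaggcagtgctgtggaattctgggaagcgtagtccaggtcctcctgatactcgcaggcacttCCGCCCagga
ZNF195, chr11:3379147-3379246, minus strand: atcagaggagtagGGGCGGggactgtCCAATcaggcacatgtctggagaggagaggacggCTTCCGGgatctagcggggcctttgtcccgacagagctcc
ZNF224, chr19:44094261-44094360, plus strand: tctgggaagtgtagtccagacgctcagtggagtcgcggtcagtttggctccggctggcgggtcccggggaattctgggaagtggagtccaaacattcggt
RefSeq windows of 250 bases before to 50 after a start were matched for 54 of the 59 genes, 74 windows in all. The ETS core was in 33.8% of these windows, against 10.3% of all 35116 windows. A CCAAT box was in 58.1% of the windows of these genes and 34.6% of all windows. The GC box was in 50% against 45%, the E-box CACGTG in 8.11% against 7.26%, and the AP-1 letters TGAGTCA in 4.05% against 4.95%. TATAAA was in 1.35% of the windows of these genes and 11.5% of all. In the NES arm the median log2 enrichment was 1.69 with the ETS core and 1.59 without, 1.71 with a CCAAT box and 1.41 without, and 1.71 with a GC box and 1.48 without. It was 1.41 in the 5 genes with an E-box and 1.69 in the 45 without, 1.34 in the 3 with the AP-1 letters and 1.69 in the 47 without, and 0.89 in the 1 with TATAAA and 1.69 in the 49 without. None of these differences was tested. Of the promoters shown, ZNF91 and ZNF195 carry all 3 motifs and ZNF224 carries none.

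The libraries held between 123341 and 14496768 counts over all genes. The MITO unlabelled enriched libraries were the shallowest, and in the shallower of them 1 count was worth 8.11 CPM, the gene's share of all gene counts scaled to 1e+06. Each library had counts for 42 to 57 of the 59 genes. The HEK293 markers LIN28B, NEFM, NEFL and PAX2 had counts in every input. They ran from 66.8 to 158 CPM for LIN28B, 27.3 to 337 CPM for NEFM and 51.7 to 163 CPM for NEFL. PAX2 was low, at 0.404 to 12.4 CPM. Markers of blood, liver, fibroblast, endothelial and squamous cells summed to 0 to 0.739 CPM in the inputs. The same markers reached 64.9 and 39.2 CPM in the enriched MITO unlabelled libraries and 24.1 and 5.16 CPM in the enriched LMNB1 unlabelled ones, and their part in the results of those arms was not tested. ZNF20, ZNF100 and ZNF141 had 14, 105 and 15 counts over all 40 libraries and passed the filter on low counts in no fit. ZNF347, with 16 counts in all, passed in the fit of all libraries alone, where it had no count in the groups compared. The filter kept 55 genes in the ERM and NES fit and 54 in each of the MITO and LMNB1 fits. A gene that passed because it was high in 1 group was more likely to differ, so the counts below are over genes tested, not over all 59.

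As a family, these mRNAs took a larger share of the enriched ERM and NES libraries than of the inputs, by 2.97 and 3.08 times. Their summed level was 3228, 3171, 3190 and 3001 CPM in the enriched ERM libraries, against 1040, 1035, 1096 and 1071 CPM in the ERM inputs. The groups did not overlap, and the ratio of their means was 2.97 (3147 ± 100, against 1061 ± 28.6 CPM, SD, n = 4 each). In NES cells the sums were 3380 and 3073 CPM enriched, against 1035 and 1062 CPM in the inputs, a ratio of 3.08. In LMNB1 cells with s6G they were 2107 and 2251 CPM enriched, against 1218 and 1010 CPM in the inputs, a ratio of 1.96. The LMNB1 APEX-only arm had 1326 and 1195 CPM enriched and 937 and 852 CPM in the inputs, a ratio of 1.41. In the LMNB1 unlabelled arm the enriched libraries, at 912 and 780 CPM, lay within the range of the inputs, at 940 and 829.4 CPM, or below it. The order over the LMNB1 arms was thus s6G, APEX only and unlabelled, and the 3 pairs of enriched libraries did not overlap. No p is given for these sums, which add up genes chosen with earlier results known.

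In MITO cells the same sum showed no clear excess over input. With s6G it was 1042 and 486 CPM enriched, against 1032 and 742 CPM in the inputs. With s4U it was 1022 and 742 CPM enriched, against 1062 and 914 CPM. The APEX-only arm had 520 and 692 CPM enriched and 842 and 895 CPM in the inputs, and the unlabelled arm 924 and 988 CPM enriched and 839 and 824 CPM in the inputs. Mitochondrially encoded RNA took 36.1% and 58.2% of the counts of the enriched MITO s6G libraries, and its part in the lower sums was not tested. When library sizes were scaled by the trimmed mean of M values (TMM), the ratio of enriched to input changed side in all 3 labelled MITO arms. It was 1.53 with TMM against 0.861 with total counts for s6G, 1.22 against 0.893 for s4U and 1.16 against 0.698 for APEX only.

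**Figure D1:**
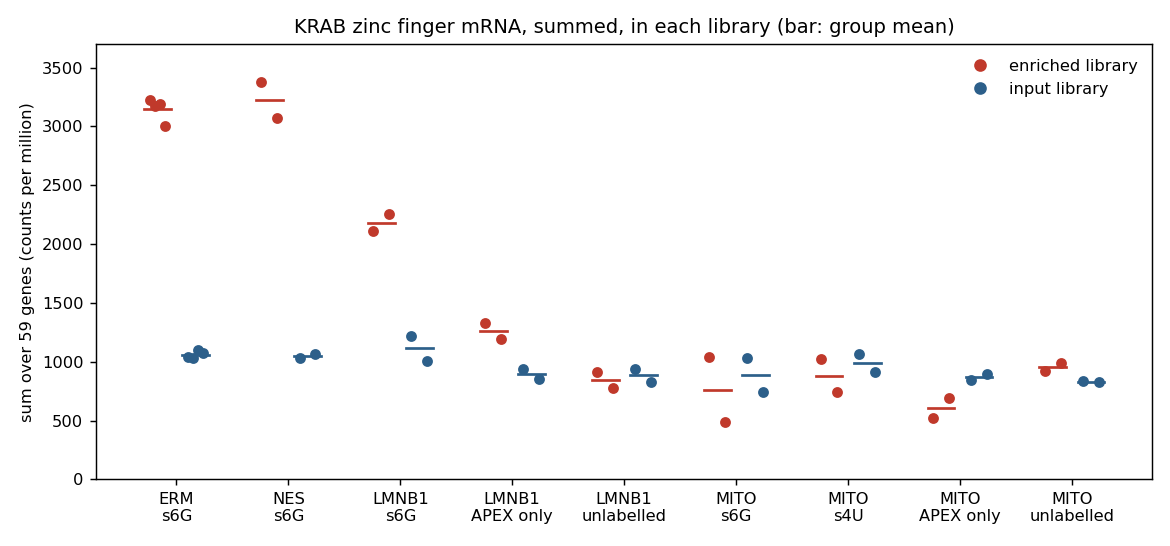
Sum of the 59 genes' CPM (vertical axis) in each of the 40 libraries, by construct and arm, with enriched libraries in red left of their inputs in blue and bars at group means. The enriched ERM and NES libraries sit between 3001 and 3380, the LMNB1 s6G ones at 2107 and 2251, and every input between 742 and 1218.

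The NES comparison asks which RNAs a cytosolic peroxidase marks in s6G-treated cells. Of the 55 genes tested, 49 rose and 1, ZNF331, fell in the enriched libraries relative to input (edgeR quasi-likelihood test, Benjamini-Hochberg adjusted p under 0.05 over all genes). Over all 15619 genes tested, 28.7% rose and 26.4% fell. The median log2 fold change was 1.68 over these genes, with 53 of 55 above 0, and 0.01 over all genes. It was at least 1 for 40 of them and at least 2 for 15. Their enrichment had no evident tie to level, as Pearson's r with mean log2 CPM was 0.09 over the 55 genes, which share libraries.

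ZNF460 led the family in both the NES and the ERM arm. It had 30.1 and 39.3 CPM in the enriched NES libraries, against 4.25 and 4.78 CPM in the inputs (log2 fold change 2.86 ± 0.35 SE, adjusted p = 2.67e-06). Its locus (chr19, 57279982 to 57294069) overlaps the antisense gene ZNF460-AS1. ZNF91, known for silencing SVA and LINE retrotransposons in primates, had 4.74 and 4.25 CPM enriched and 0.369 and 0.885 CPM in the inputs. That came to 2.74 ± 0.56 (adjusted p = 0.000417) at a low level. ZNF14 had 102 and 84.3 CPM enriched, against 14.6 and 13.3 CPM in the inputs (2.68 ± 0.19, adjusted p = 8.54e-09). ZNF420, a repressor of p53-dependent apoptosis genes also called APAK, had 66.6 and 51.9 CPM enriched and 10.2 and 11.3 CPM in the inputs, with a log2 fold change of 2.40 ± 0.22. In all 4 genes both enriched libraries exceeded both inputs.

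The smallest calls in NES were ZNF84, at 0.40 (adjusted p = 0.0474), ZNF333 at 0.66, ZNF383 at 0.69 and ZNF33B at 0.80. ZNF84 lost its call with another scaling, without the filter and with DESeq2. ZNF331, an imprinted gene, had 0.122 and 0.129 CPM in the enriched NES libraries, which is 1 count in each, and 0.554 and 1.77 CPM in the inputs, or 3 and 10 counts. The ratio of the pooled levels was 0.106, with an exact 95% interval from 0.0117 to 0.470 that covers counting error alone. Its adjusted p was 0.0461, and the call was lost when the replicate number was a block.

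On the endoplasmic reticulum membrane 50 of the 55 genes rose and 1, again ZNF331, fell, whereas 34.3% of all genes rose and 28.9% fell. With total-count scaling the split over all genes was 44.5% higher and 21% lower, and that of the family 54 higher and 0 lower. The median log2 fold change was 1.28, with 54 of 55 above 0, and 0.11 over all genes. In 54 of all 59 genes, tested or not, every enriched ERM library exceeded every ERM input in CPM. The share of all genes that did so is not given here, so the 54 cannot be read as particular to the family. ZNF460 had 85, 52.8, 41.9 and 37.9 CPM enriched, against 4.95, 5.59, 7.78 and 5.57 CPM in the inputs (2.81 ± 0.23 SE, adjusted p = 8.91e-09). The enriched libraries of ZNF460 spread more widely than those of most members, yet all lay far above the inputs. ZNF91 had 5.43, 2.69, 5.47 and 3.86 CPM enriched and 1.05, 0.524, 0.873 and 0.727 CPM in the inputs (2.11 ± 0.35).

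ZNF264 had 158, 116, 109 and 102 CPM in the enriched ERM libraries, against 22.7, 25, 25.5 and 23.2 CPM in the inputs (2.01 ± 0.13). ZNF484 had 45.7, 54, 34.7 and 34.8 CPM enriched and 8.7, 6.82, 9.2 and 9.13 CPM in the inputs (1.96 ± 0.17). At the low end, ZNF195 had 55.4, 74.9, 71.7 and 64 CPM enriched and 35.7, 39, 45.2 and 43.9 CPM in the inputs. The groups did not overlap, but the change was 0.38 ± 0.15 (adjusted p = 0.0289) and the call was lost with DESeq2. ZNF84 and ZNF33B rose by 0.53 and 0.54. ZNF331 had 1.31, 0.632, 0 and 0.138 CPM enriched and 0.9, 1.4, 1.43 and 1.21 CPM in the inputs, so the groups overlapped. Its fold change of -2.003 ± 0.71 (adjusted p = 0.0197) was no longer called with total-count scaling or DESeq2.

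**Figure D2:**
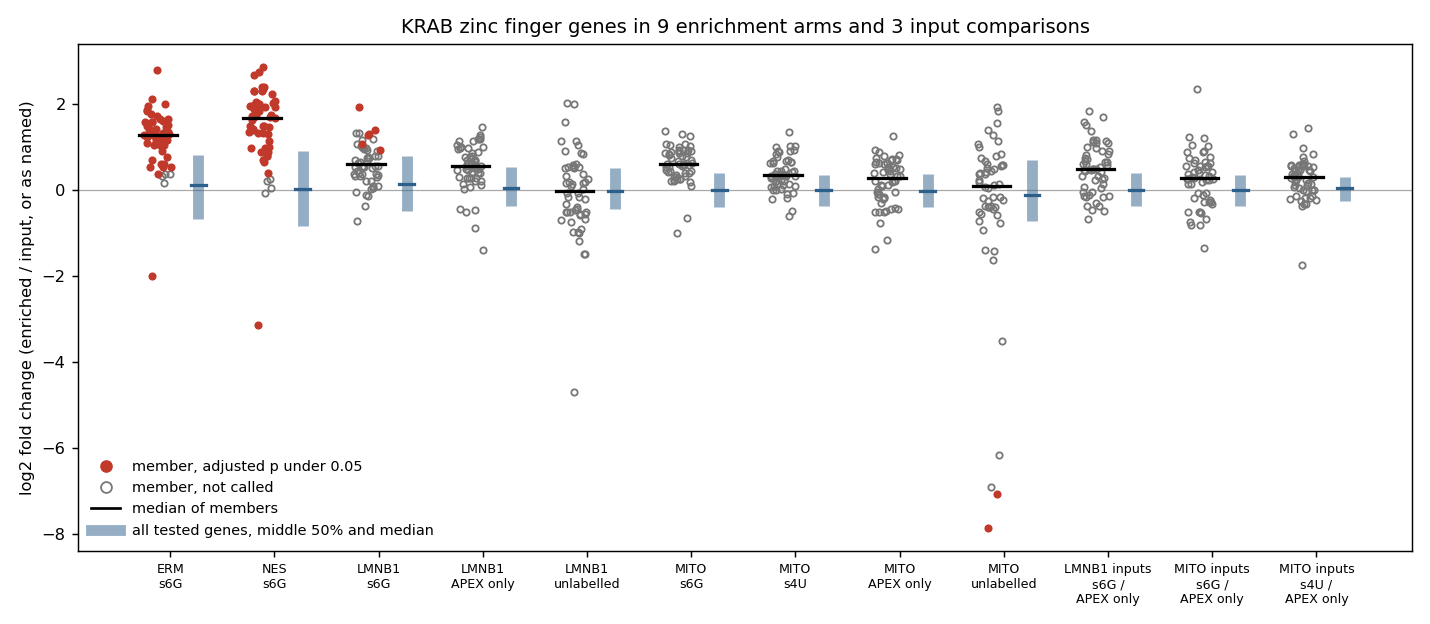
Log2 fold change (vertical axis) of every tested gene of the family in the 9 enrichment arms and in 3 comparisons between inputs, filled red where the adjusted p is under 0.05, with black bars at the family's median and blue bars at the middle 50% and median of all tested genes. The family's median is 1.28 in ERM and 1.68 in NES, 0.60 in LMNB1 s6G and -0.02 in LMNB1 unlabelled.

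Both arms called largely the same genes. In all, 48 genes rose in ERM and in NES, which is 96% of the 50 and 98% of the 49. With 50 and 49 of 55 genes called, a large overlap was bound to arise. The overlap over all genes is not given here. ZNF195 and ZNF320 were called in ERM but not in NES, and ZNF429 in NES but not in ERM. The log2 fold change was larger in NES for 44 of 55 genes, with a median difference of ERM minus NES of -0.31. No gene of the family passed the test of that difference, in which 0.0064% of all genes were higher in ERM. Without adjustment 14 had p under 0.05, against 13.9% of all genes. DESeq2 called 4, all lower in ERM, and 1.36% of all genes with a count in either direction. Blocking on the replicate, 5 were lower in ERM, against 3.58% of all genes: ZNF420 (-0.91), ZNF14 (-0.80), ZNF133 (-0.73), ZNF12 (-0.60) and ZNF317 (-0.57). Fold changes in the arms had a Pearson's r of 0.93 over 55 genes, 0.87 without ZNF331 and 0.83 over all 15619 genes. These are values over genes that share libraries, and the arms share no library.

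At the nuclear lamina with s6G, 6 of 54 genes rose and none fell, against 5.37% of all 16525 genes that rose. The 6 are 11.1% of the family, and the share of all genes that fell is not given here. With total-count scaling 11 of the family rose, 9.35% of all genes were higher and 5.32% lower. The median log2 fold change was 0.60, with 49 of 54 above 0, and 0.13 over all genes. It was at least 1 for 12 genes, and 15 had an unadjusted p under 0.05, against 27.6% of all genes. Blocking on the replicate raised the count to 10, against 8.35% of all genes. It kept the 6 and added ZNF226 (1.02), ZNF133 (1.16), ZNF202 (1.19), a repressor of lipid metabolism genes, and ZNF320 (1.35). Without enriched replicate 1 the family's median was 0.56, and without enriched replicate 2 it was 0.66. Without input replicate 1 it was 0.66, and without input replicate 2 it was 0.39, each from a group of 1 library.

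The 6 genes were ZNF224, ZNF212, ZNF84, ZNF175, ZNF282 and ZNF431. ZNF224, described as a repressor of the aldolase A gene, had 28.1 and 45.6 CPM in the enriched LMNB1 s6G libraries, against 8.7 and 7.76 CPM in the inputs (1.94 ± 0.56 SE, adjusted p = 0.0388). In the unlabelled arm ZNF224 had 6.03 and 27.9 CPM enriched and 6.64 and 9.96 CPM in the inputs, so 1 unlabelled library reached a like level. The locus of ZNF224 overlaps ZNF225-AS1. ZNF212 had 187 and 221 CPM enriched and 71.2 and 63.1 CPM in the inputs (1.39 ± 0.25, adjusted p = 0.00384). In the LMNB1 APEX-only arm ZNF212 had 69 and 51 CPM enriched and 54 and 50.2 CPM in the inputs, with no call, and in the unlabelled arm 40.2 and 57.5 CPM enriched and 59.8 and 47.2 CPM in the inputs.

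ZNF175, reported to repress the HIV promoter, had 38 and 41.5 CPM enriched with s6G, against 15 and 13.4 CPM in the inputs (1.27 ± 0.34, adjusted p = 0.0282). ZNF84 had 50.4 and 47.7 CPM enriched and 20.7 and 14 CPM in the inputs (1.30 ± 0.39, adjusted p = 0.0433). ZNF431 had 73.4 and 68.8 CPM enriched and 36.4 and 27.7 CPM in the inputs (0.94 ± 0.29, adjusted p = 0.048). In all 3 both enriched libraries exceeded both inputs. Of the 6 genes, 5 had also risen in ERM and NES. The exception was ZNF224, at 0.37 in ERM (adjusted p = 0.0913) and -0.07 in NES.

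ZNF282, which binds the long terminal repeat of a T-cell leukaemia virus, is the family's most abundant member by mean log2 CPM. It had 371 and 366 CPM in the enriched LMNB1 s6G libraries, against 170 and 135 CPM in the inputs (1.07 ± 0.24, adjusted p = 0.0114). In the LMNB1 APEX-only arm it lay the other way, with 120 and 99.6 CPM enriched and 202 and 166 CPM in the inputs. That difference of -0.89 had an adjusted p of 0.0822 and was called with the replicate block, where 2.89% of all genes were lower. The unlabelled arm had 158 and 93.1 CPM enriched and 169 and 174 CPM in the inputs. The enrichment of ZNF282 in s6G minus that in unlabelled LMNB1 cells was 1.51 ± 0.34 (adjusted p = 0.0399).

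In that difference of s6G minus unlabelled, 1.51% of all genes were higher and 2 genes of the family passed, ZNF282 and ZNF14. ZNF14 was called (adjusted p = 0.0267) with 0 and 0.258 CPM in the unlabelled enriched libraries, 1 count in all, against 6.13 and 4.82 CPM in the unlabelled inputs. The pooled ratio was 0.0349 (exact 95% interval 0.000868 to 0.203, counting error alone). With s6G, ZNF14 had 17.1 and 21 CPM enriched and 16.9 and 11.4 CPM in the inputs. The replicate block called 3 genes, adding ZNF212, and 3.13% of all genes as higher. The size of the difference depended on single libraries. With 1 library left out, the family's median difference ran from 0.45, without unlabelled enriched replicate 2, to 1.19, without s6G input replicate 1.

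In the LMNB1 APEX-only arm no gene of the family was called, where 0.411% of all genes rose. The median was nevertheless 0.57, with 49 of 54 above 0, and 12 genes had an unadjusted p under 0.05, against 15.8% of all genes. DESeq2 called 6, 5 of them higher, and 2.66% of all genes with a count in either direction. The replicate block called ZNF431 as higher (1.14) and ZNF282 as lower (-0.89), where 1.19% of all genes were higher and 2.89% lower. The test of s6G minus APEX-only enrichment called none (0% of all genes were higher), with a median difference of 0.12, 3 genes at an unadjusted p under 0.05 (12.2% of all genes) and 3 called by DESeq2 (2.05% of all genes with a count). In the unlabelled arm none was called either, with 0.0242% of all genes higher. There the median was -0.02, 27 of 54 were above 0, 8 had an unadjusted p under 0.05 (17.3% of all genes) and DESeq2 called 1 (1.1% of all genes with a count). Without unlabelled enriched replicate 1 the family's median was -0.20, and without replicate 2 it was 0.01, each from a group of 1 library.

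The authors' deposited table of LMNB1 fold changes gave an adjusted p to 52 of these genes with s6G, and called 8 higher and 0 lower. Without a thionucleoside the authors' deposited table gave one to 35 genes, with 4 higher and 1 lower. The lower gene there was ZNF282, at -0.93 (adjusted p = 0.000733). In the authors' deposited table with s6G, the log2 fold change was 1.77 for ZNF224, 1.22 for ZNF212 and 0.91 for ZNF282. ZNF431, called above, had 0.78 in the authors' table and was not called there (adjusted p = 0.073). Shares of all genes called in the authors' table are not given here.

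**Figure D3:**
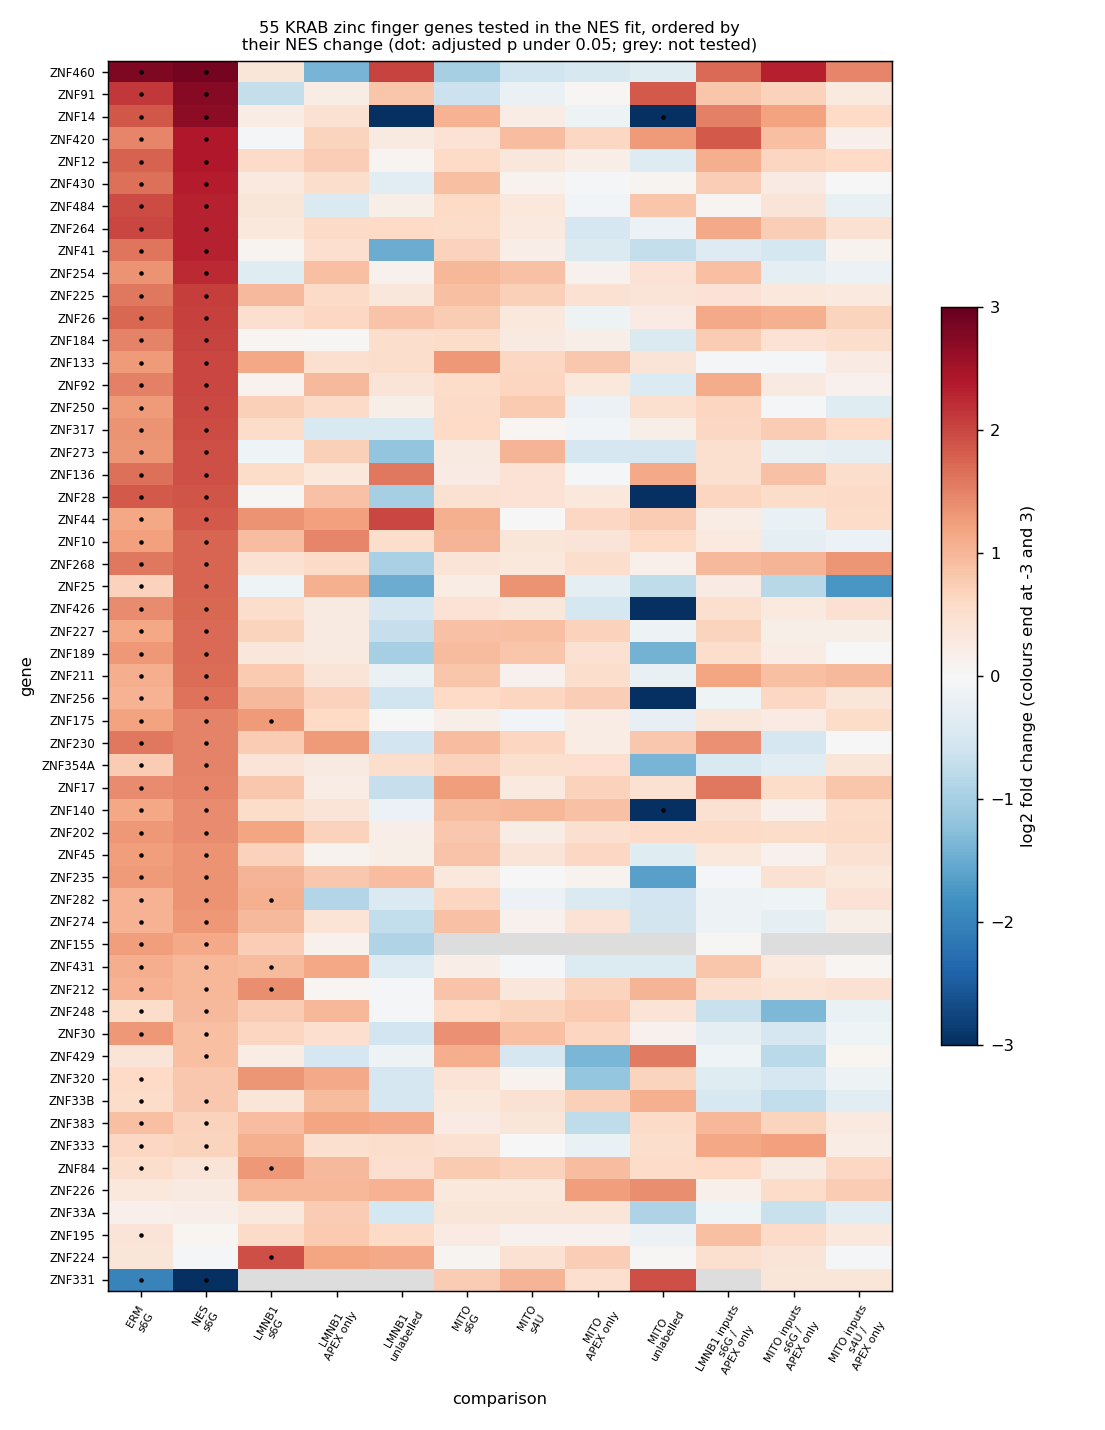
Log2 fold change (colour, blue lower and red higher, ends at -3 and 3) of the 55 genes tested in NES, 1 per row and ordered by their NES change, in 12 comparisons, 1 per column. Black dots mark an adjusted p under 0.05 and grey cells genes not tested. The dots fill the ERM and NES columns, number 6 in LMNB1 s6G and 2 in MITO unlabelled, and appear in no other column.

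Enrichment at the lamina and in the cytosol was then compared directly, in 1 fit of all 40 libraries. Of 56 genes of the family tested, 20 were lower in LMNB1 than in NES and 1, ZNF224, was higher. Over all genes 11.3% were lower and 7.04% were higher. With total-count scaling 14 of the family were lower and 1 higher, and over all genes 6.76% were lower and 9.59% higher. The median difference of LMNB1 minus NES was -0.96, and 9 of 56 were above 0. With the replicate block 25 were lower and 1 higher, 21 of them shared with the fit without it, and over all genes 16.9% were lower and 11.5% higher. With 1 library left out, the family's median difference ran from -1.03, without NES enriched replicate 2, to -0.72, without NES enriched replicate 1. Constructs were separate cell populations and the comparison rests on 2 libraries per group, so construct and experiment cannot be told apart.

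The genes with the most negative difference were among the more enriched in NES, a tendency built into a difference that subtracts NES enrichment. ZNF91 had 0.276 and 2.45 CPM in the enriched LMNB1 s6G libraries and 0.94 and 2.91 CPM in their inputs, and its LMNB1 minus NES difference was -3.60 ± 1.06 SE (adjusted p = 0.0144). ZNF254 had 11.8 and 10.9 CPM enriched and 15 and 10.5 CPM in the inputs at the lamina. In NES it had 43.4 and 38.1 CPM enriched and 8.12 and 8.32 CPM in the inputs, and the difference was -2.74 ± 0.52 (adjusted p = 0.000235). ZNF460 had 10.7 and 15.1 CPM enriched and 9.64 and 7.57 CPM in the inputs at the lamina, and differed by -2.63 ± 0.83 (adjusted p = 0.0228). That call was lost with total-count scaling (adjusted p = 0.0614). ZNF14 differed by -2.59 ± 0.42 (adjusted p = 3.53e-05). None of the 4 was called at the lamina.

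The other genes lower in LMNB1 than in NES were ZNF420 (-2.56), ZNF41 (-2.33), ZNF273 (-2.20), ZNF430 (-2.18), ZNF264 (-2.13), ZNF184 (-2.11), ZNF484 (-2.09), ZNF92 (-2.03), ZNF28 (-1.995), ZNF12 (-1.96), ZNF26 (-1.66), ZNF317 (-1.52), ZNF189 (-1.48), ZNF250 (-1.43), ZNF426 (-1.33) and ZNF227 (-1.18). The last 3 lost their call with either other scaling or without the filter. ZNF224 went the opposite way, by 1.87 ± 0.59 (adjusted p = 0.0214). In NES it had 14.9 and 11.9 CPM enriched, overlapping its inputs at 17 and 9.92 CPM.

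Among these genes, the order of enrichment at the lamina ran against that in the cytosol. Pearson's r between the log2 fold changes of LMNB1 s6G and NES was -0.56 over 54 genes (Spearman's rho -0.55), while it was 0.17 over 14975 genes. The LMNB1 APEX-only arm gave -0.32 over the family and 0.05 over all genes. With MITO s6G the value was -0.06 over the family and 0.38 over all genes. These are descriptions over genes, which are not independent replicates. Enrichment was larger in NES for 45 of the 54.

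**Figure D4:**
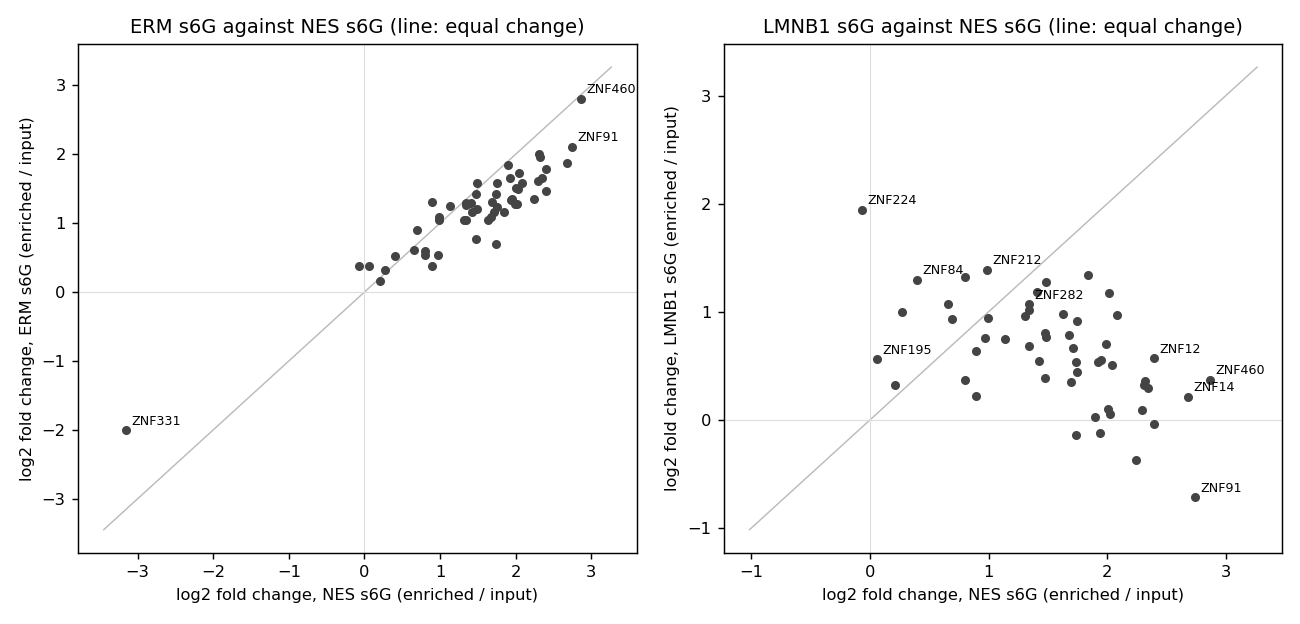
Log2 fold change of enriched over input of each tested gene of the family in ERM s6G (left, vertical axis) and in LMNB1 s6G (right, vertical axis) against NES s6G (horizontal axes), with a grey line of equal change. Points follow the line in ERM, with r 0.93 over 55 genes, and slope the other way in LMNB1, with r -0.56 over 54 genes, where ZNF224 is the highest and ZNF91 the lowest.

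The 6 members with the highest mean level show the range of patterns in single genes. ZNF317 had 304, 290, 310 and 293 CPM in the enriched ERM libraries, against 85.7, 86, 108 and 94.8 CPM in the inputs (1.36 ± 0.12). In NES it had 354 and 290 CPM enriched and 81.4 and 78.3 CPM in the inputs (1.95 ± 0.18). At the lamina it had 135 and 152 CPM enriched with s6G and 87.9 and 81.3 CPM in the inputs, which was not called (0.55, adjusted p = 0.113). In the LMNB1 APEX-only arm ZNF317 was at 52.3 and 43.6 CPM enriched and 62.7 and 57.1 CPM in the inputs, and in the unlabelled arm at 35.5 and 45.9 CPM enriched and 58.8 and 57.3 CPM in the inputs. Among the ERM, NES and LMNB1 arms, both groups stood apart with enriched above input in the 3 s6G arms alone.

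ZNF12, on chromosome 7 (6688433 to 6706947), had 218, 224, 224 and 209 CPM in the enriched ERM libraries, against 50, 51.6, 58.1 and 45.8 CPM in the inputs (1.78 ± 0.11, adjusted p = 6.15e-10). In NES it had 274 and 234 CPM enriched and 42.8 and 49.6 CPM in the inputs (2.40 ± 0.17, adjusted p = 7.95e-09). At the lamina it had 71.9 and 83.2 CPM enriched with s6G and 47.2 and 43.1 CPM in the inputs (0.57 ± 0.23, adjusted p = 0.132). The LMNB1 APEX-only arm was similar in proportion, with 44.9 and 39.6 CPM enriched and 24.1 and 22 CPM in the inputs, and the unlabelled arm had 31.5 and 24.8 CPM enriched and 27.9 and 25.6 CPM in the inputs.

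ZNF282 (149195546 to 149226243) and ZNF212 (149239651 to 149255606) are neighbours on chromosome 7. ZNF282 had 339, 289, 321 and 326 CPM in the enriched ERM libraries, against 145, 122, 116 and 118 CPM in the inputs (1.04 ± 0.10, adjusted p = 6.03e-08). In NES it had 298 and 295 CPM enriched and 105 and 119 CPM in the inputs (1.34 ± 0.15, adjusted p = 5.54e-07). ZNF212 had 120, 120, 134 and 130 CPM enriched and 53.3, 43.7, 49.8 and 50.5 CPM in the inputs of ERM (1.04 ± 0.11), and 111 and 108 CPM enriched and 53.2 and 52.1 CPM in the inputs of NES (0.99 ± 0.16). For both genes the change at the lamina with s6G was close to that in ERM and NES, unlike for ZNF12 and ZNF14.

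Of these 6, ZNF195 and ZNF33A changed least in ERM and NES. ZNF195 had 71.7 and 58.9 CPM in the enriched NES libraries, overlapping its inputs at 66.7 and 53.5 CPM (0.06, adjusted p = 0.832). At the lamina it had 85 and 80.8 CPM enriched with s6G and 47.7 and 49.7 CPM in the inputs, 57.7 and 49.7 CPM enriched and 29.9 and 26.7 CPM in the inputs with APEX only, and 46.9 and 43.9 CPM enriched and 37 and 23.9 CPM in the inputs unlabelled. None of these was called. ZNF33A had 43.6, 45, 47.4 and 45.7 CPM enriched and 36.5, 37.6, 31.6 and 26.9 CPM in the inputs of ERM (0.16, adjusted p = 0.218). In NES it had 54.8 and 49.3 CPM enriched and 43.4 and 42.7 CPM in the inputs (0.21, adjusted p = 0.281). At the lamina ZNF33A had 40.6 and 29.8 CPM enriched and 32.9 and 16.1 CPM in the inputs with s6G, 57.2 and 51.2 CPM enriched and 33.8 and 24 CPM in the inputs with APEX only, and 24.1 and 23.2 CPM enriched and 38.1 and 31.2 CPM in the inputs unlabelled.

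**Figure D5:**
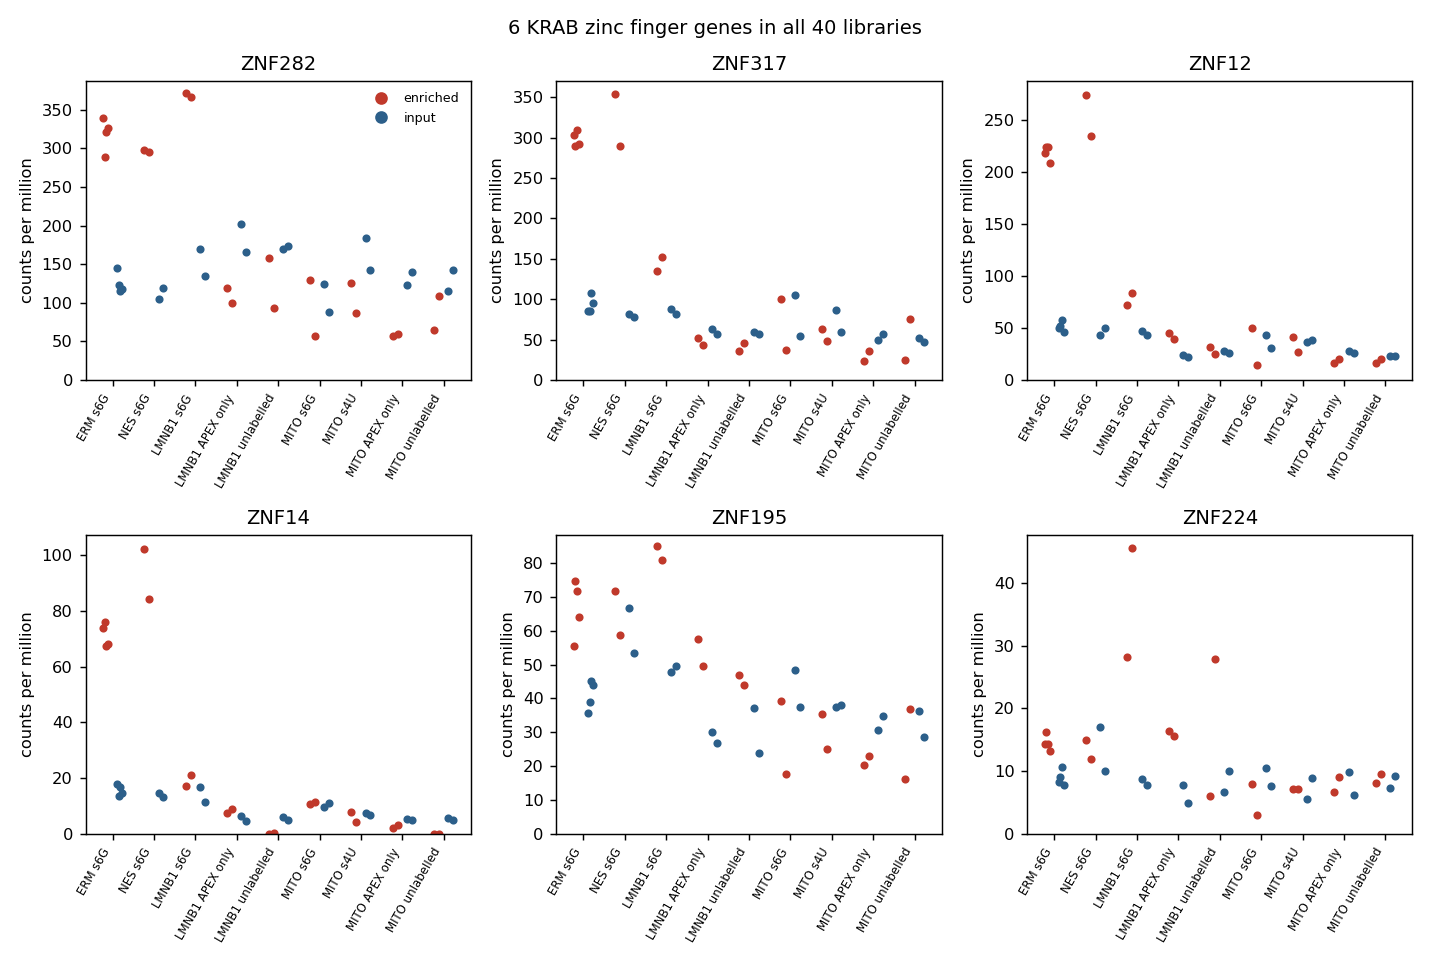
CPM (vertical axes) of ZNF282, ZNF317, ZNF12, ZNF14, ZNF195 and ZNF224 in each of the 40 libraries, by construct and arm, with enriched libraries in red left of their inputs in blue. ZNF12 and ZNF14 stand highest in the enriched ERM and NES libraries, ZNF282 is as high in LMNB1 s6G (371 and 366) as in ERM, and ZNF224 is highest in LMNB1 s6G (28.1 and 45.6).

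In the mitochondrial matrix arms no gene of the family was called with s6G, s4U or APEX only. With s6G 0.29% of all genes rose, and the family had a median log2 fold change of 0.60 on the TMM scale, with 52 of 54 above 0. An unadjusted p was under 0.05 for 7 genes (8.86% of all genes), and DESeq2 called 2 (1.61% of all genes with a count). The replicate block called 3.47% of all genes as higher and 4 of the family, ZNF30 (1.35), ZNF133 (1.31), ZNF189 (0.96) and ZNF212 (0.85). With total-count scaling the family's median turned to -0.23, while that of all genes was -0.87, so the family lay above the other genes on either scale but above its own input on only 1.

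With s4U, where 0.112% of all genes rose, the family's median was 0.35, with 48 of 54 above 0. An unadjusted p was under 0.05 for 2 genes (6.93% of all genes), DESeq2 called 0 (1.03% of all genes with a count), and with total counts the median was -0.10, against -0.44 over all genes. In the MITO APEX-only arm, where 0.251% rose, the median was 0.27, 35 of 54 were above 0, 5 had an unadjusted p under 0.05 (8.86% of all genes) and DESeq2 called 2 (1.6% of all genes with a count). With total counts it was -0.47, against -0.74 over all genes. The replicate block called ZNF226 (1.25) and 4.33% of all genes as higher. Across the 3 labelled MITO arms 33 genes had a positive TMM-scaled change in each.

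The abundant members followed the same line in MITO cells. ZNF282 had 130 and 56.8 CPM enriched and 125 and 87.6 CPM in the inputs with s6G, and 126 and 86.4 CPM enriched and 184 and 142 CPM in the inputs with s4U. It had 57.3 and 59.4 CPM enriched and 123 and 139 CPM in the inputs with APEX only, and 64.9 and 109 CPM enriched and 115 and 143 CPM in the inputs unlabelled. Its enriched libraries lay below both inputs in 3 of these 4 arms and overlapped them with s6G. ZNF317 had 99.9 and 37.5 CPM enriched and 105 and 53.9 CPM in the inputs with s6G, 63.6 and 48.6 CPM enriched and 86.7 and 59.2 CPM in the inputs with s4U, and 23.5 and 36.1 CPM enriched and 49.3 and 56.6 CPM in the inputs with APEX only. ZNF212 had 49.3 and 41.6 CPM enriched and 48.7 and 45.7 CPM in the inputs with s6G, 46.8 and 48.4 CPM enriched and 53.5 and 48.4 CPM in the inputs with s4U, and 38.6 and 38 CPM enriched and 35.8 and 43.8 CPM in the inputs with APEX only.

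ZNF12 in MITO cells had 50.1 and 14.1 CPM enriched and 43 and 30.3 CPM in the inputs with s6G, 41.3 and 26.9 CPM enriched and 36 and 38.4 CPM in the inputs with s4U, and 16.2 and 20.6 CPM enriched and 27.8 and 25.7 CPM in the inputs with APEX only. ZNF195 had 39.3 and 17.7 CPM enriched and 48.4 and 37.3 CPM in the inputs with s6G, 35.4 and 25.2 CPM enriched and 37.5 and 38.2 CPM in the inputs with s4U, and 20.2 and 22.9 CPM enriched and 30.6 and 34.9 CPM in the inputs with APEX only. ZNF33A had 24.3 and 12.8 CPM enriched and 28.7 and 23.6 CPM in the inputs with s6G, 33.6 and 30.9 CPM enriched and 35.5 and 33.6 CPM in the inputs with s4U, and 27.6 and 45 CPM enriched and 47.2 and 46.8 CPM in the inputs with APEX only. In the unlabelled arm ZNF317 had 24.3 and 76 CPM enriched and 51.7 and 46.5 CPM in the inputs, ZNF12 16.2 and 20.2 CPM enriched and 23.1 and 23.3 CPM in the inputs, and ZNF212 64.9 and 89.1 CPM enriched and 34.6 and 38.7 CPM in the inputs. ZNF195 had 16.2 and 36.8 CPM enriched and 36.4 and 28.7 CPM in the inputs there, and ZNF33A 24.3 and 26.1 CPM enriched and 45.4 and 43.4 CPM in the inputs. In CPM most of these groups overlapped or lay below their inputs, ZNF212 in the unlabelled arm being the exception, with both enriched libraries above both inputs.

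Enrichment with s6G minus that with APEX only called none of these genes in MITO cells (0% of all genes were higher), with a median difference of 0.42, 2 at an unadjusted p under 0.05 (2.45% of all genes) and 0 called by DESeq2 (0.0347% of all genes with a count). The difference of s6G minus unlabelled called none either (0.277% of all genes were higher). Its median was 0.56, 11 had an unadjusted p under 0.05 (18.6% of all genes) and DESeq2 called 0 (1.85% of all genes with a count). The replicate block called 6 as higher, against 6.92% of all genes. With 1 library left out, the median ran from 0.34, without s6G enriched replicate 1, to 1.04, without unlabelled enriched replicate 2. With total counts and all libraries the median of 0.56 turned to -0.54, against -1.003 over all genes.

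In the unlabelled MITO arm 2 genes fell, ZNF140 and ZNF14, and none rose, whereas 4.09% of all genes fell and 5.78% rose. Both had 0 counts in the enriched libraries, against 10.8 and 7.6 CPM in the inputs for ZNF140 and 5.77 and 4.99 CPM for ZNF14. Against a floor of 3 counts over the group, ZNF140 was at least 2.94-fold lower (adjusted p = 0.0296) and ZNF14 at least 1.73-fold lower (adjusted p = 0.0392). The replicate block called 6 genes, with ZNF33B, ZNF212 and ZNF226 higher and ZNF140, ZNF14 and ZNF426 lower, where 9.89% of all genes were higher and 10.6% lower. Changes in this arm depended on single libraries. The family's median was -0.16 without enriched replicate 1, the shallowest library, and -0.46 without enriched replicate 2. It was 0.12 without input replicate 1 and -0.10 without input replicate 2. With all libraries of the arm the family's median was 0.10, or 0.13 with genes at 0 put at their bound.

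Comparing inputs asks whether the thionucleoside itself went with a change in these mRNAs. In bulk RNA, fewer cells with an mRNA and less of it per cell cannot be told apart. In LMNB1 cells no gene of the family passed between s6G inputs and APEX-only inputs, where 0.109% of all genes were higher. With the replicate number as a block 25 passed, and the share of all genes is not given here. That number marks no sample shared between arms, but same-numbered LMNB1 inputs had an r of 0.43 to 0.55. Without the block the median was 0.49, 41 of 54 were above 0, 14 had an unadjusted p under 0.05 (11.5% of all genes) and DESeq2 called 2 (0.731% of all genes with a count). Against the unlabelled inputs the median was 0.61 and none was called. In MITO cells s6G inputs minus APEX-only inputs had a median of 0.29 with 36 of 54 above 0, no call (0.0528% of all genes were higher), 5 at an unadjusted p under 0.05 (8.49% of all genes) and 1 by DESeq2 (0.481% of all genes with a count). For s4U the median was 0.31 with 41 of 54 above 0, again with no call (0% of all genes), 2 at an unadjusted p under 0.05 (3.85% of all genes) and 0 by DESeq2 (0.142% of all genes with a count).

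ZNF460 and ZNF420 are given as examples, picked out after their values were seen. ZNF460 had 15.7 and 3.37 CPM in the MITO s6G inputs, against 2.57 and 1.75 CPM in the APEX-only inputs (2.34, adjusted p = 0.36). In LMNB1 cells it had 9.64 and 7.57 CPM in the s6G inputs and 1.95 and 3.75 CPM in the APEX-only inputs (1.71, adjusted p = 0.51). ZNF420 had 19 and 14.6 CPM in the LMNB1 s6G inputs and 6.02 and 4.08 CPM in the APEX-only inputs (1.85, adjusted p = 0.152). These groups did not overlap, but none passed in the fit without the replicate block. The family's log2 differences between s6G and APEX-only inputs had a Pearson's r of 0.72 between LMNB1 and MITO cells over 53 genes, the same as over all 14522 genes. With NES enrichment, the LMNB1 input difference had an r of 0.38 over 54 genes and -0.08 over all genes.

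Other zinc finger genes behaved like these 59 in ERM and NES. In a list of 253 further KRAB zinc finger genes, 183 of 207 tested rose and 0 fell in ERM, with a median of 1.21, and 171 rose and 1 fell in NES, with a median of 1.58. Zinc finger genes without a KRAB domain, a list of 103, had 82 of 100 tested higher and 4 lower in ERM, with a median of 1.16, and the same numbers in NES, with a median of 1.63. At the lamina with s6G, 11 of 204 further KRAB genes rose and 0 fell (median 0.66), a share close to the 5.37% of all genes that rose. Of the genes without KRAB, 10 rose and 2 fell there (median 0.24). The share of all genes that fell there is not given here. In LMNB1 minus NES, 3 of 226 further KRAB genes were higher and 50 lower (median -1.09), and 1 of the genes without KRAB was higher and 55 lower (median -1.52). Over all genes 34.3% rose and 28.9% fell in ERM, and 28.7% rose and 26.4% fell in NES. In LMNB1 minus NES 7.04% of all genes were higher and 11.3% lower. Differences between the lists were not tested.

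The co-repressor machinery did not follow its zinc finger partners as a list. Of 37 co-repressor genes tested, 12 rose and 13 fell in ERM (median -0.06), and 11 rose and 13 fell in NES (median -0.16). Of all genes, 34.3% rose and 28.9% fell in ERM, and 28.7% rose and 26.4% fell in NES. TRIM28, the scaffold bound by KRAB domains, had 696, 600, 652 and 683 CPM in the enriched ERM libraries, against 872, 794, 708 and 671 CPM in the inputs. It fell by 0.51 on the log2 scale (± 0.11 SE, adjusted p = 0.000431), although 2 enriched libraries lay within the range of the inputs. It was not called in NES (-0.31, adjusted p = 0.101) or in LMNB1 s6G (-0.61, adjusted p = 0.0773). With the replicate block it was called as lower in NES (adjusted p = 0.0166) and LMNB1 s6G (adjusted p = 0.0353). SETDB1, the methyltransferase recruited by TRIM28, rose at the lamina. There it had 76.7 and 73.7 CPM enriched with s6G, against 35.7 and 34 CPM in the inputs (0.91 ± 0.22, adjusted p = 0.0169). It was not called in ERM (0.14, adjusted p = 0.352) or NES (0.03).

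Partners of SETDB1 and TRIM28 moved in both directions. ATF7IP, which stabilises SETDB1, rose by 1.16 in ERM and 1.59 in NES, and SUV39H1, another histone methyltransferase, by 1.09 and 1.4997. MTA1, a NuRD subunit, fell, with -1.45 in ERM and -2.004 in NES. The NuRD subunits RBBP4 (-1.44 in ERM) and CHD4 (-1.54 in NES) fell too. In LMNB1 minus NES, MTA1 (1.98) and the SUMO protease SENP7 (1.79) were higher, and ATF7IP (-1.72) and SUV39H1 (-1.46) lower. With s6G 5.37% of all genes rose at the lamina, and the share that fell is not given here. Of the co-repressor genes 5 rose there and 3 fell. Among them were TRIM33 (1.51, adjusted p = 0.00135), a relative of TRIM28, and MORC3 (1.32) higher and SUMO2 (-1.44) lower.

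Position in the genome was compared last. The 32 tested genes on chromosome 19 had a median NES log2 fold change of 1.56, and the 23 elsewhere 1.74. At the lamina with s6G the medians were 0.75 on chromosome 19 (31 genes) and 0.51 elsewhere (23 genes). Neighbours within 1000000 bases formed clusters of up to 8 members. The cluster of 8 on chromosome 19 (43912624 to 44305025), which holds ZNF224, ZNF225, ZNF226 and ZNF227, had NES changes from -0.07 to 2.08 (median 1.34) and an LMNB1 s6G median of 0.87. The cluster of 6 nearer the end of chromosome 19 (57191500 to 58213562), which holds ZNF460 and ZNF264, ran from 1.31 to 2.86 in NES (median 1.65). It includes ZNF274, known for binding the ends of zinc finger genes themselves. The cluster of 5 on chromosome 12 (132986367 to 133214832), which includes ZNF10, whose KRAB domain is used in synthetic repressors, had a NES median of 1.75. Close neighbours could thus differ, as ZNF224 at -0.07 and ZNF225 at 2.08 in NES lie in the same cluster.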

How the data were processed

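The authors deposited a table of gene counts for 40 libraries, whole numbers with no normalization, and this table is the source of all tests here. The submitters' processing notes name the build GRCh38 and list DESeq2, deepTools 2.5.3, HTSeq 0.7.2, SAMtools and HISAT2 2.1.0 without giving their roles. Per the labels, inputs had fewer PCR cycles than enriched libraries. The authors also deposited log2 TPM values for MITO, which add both replicates and were not used for levels, since the ratio of counts to TPM followed the span of the locus. Their deposited ERM table holds a score (mean normalized count), a log2 fold change and a p-value for each gene and was not used for tests. Their deposited LMNB1 table holds log2 fold changes and adjusted p-values, and its values are quoted as the authors'. Its header does not say which groups the fold change compares.

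Fits were made with edgeR 4.0.16 in R 4.3.3 (TMM scaling, filterByExpr, robust quasi-likelihood test, Benjamini-Hochberg adjustment over all tested genes, threshold 0.05). There were 3 fits, of 16 MITO, 12 ERM and NES and 12 LMNB1 libraries, and 1 fit of all 40 for LMNB1 minus NES. CPM is a gene's share of all gene counts in a library, times 1e+06. The authors' counts ranged from 123341 to 14496768 per library, and intervals and floors (3 counts) cover counting error alone, since PCR copies are not independent molecules. The tests were first tried on simulated data with known changes, 100 genes changed 2-fold and 100 changed 4-fold per arm. Only genes with an average log2 CPM above 2 were changed, and ZNF331 and ZNF91, for example, lay below that in MITO. Far more genes were called in the real ERM and NES data, so the shares recovered are not the power for these members. Of simulated 2-fold changes, 91% were recovered in ERM, 63% in NES, 9% in LMNB1 s6G and 8% in MITO s6G. Of 4-fold changes, 100%, 95%, 62% and 66% were recovered. Counts of calls are therefore not comparable between these arms, and few or no calls do not show that enrichment was absent.

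Enriched and input libraries of the same number come from the same biological replicate, per the series' design. Their deviations from group means had an r of 0.53, 0.64, 0.49 and 0.10 in the MITO s6G, s4U, APEX-only and unlabelled arms, 0.15 to 0.20 in ERM, 0.19 in NES, and 0.50, 0.35 and 0.04 in the LMNB1 s6G, APEX-only and unlabelled arms. Alternatives were RLE scaling, total counts, no filter, DESeq2 1.42.0, the replicate as a block, leaving out each library, and unlabelled inputs as the control.

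The 59 genes, the gene lists and the tests were chosen with earlier results of these data known. Values are given for the 6 members with the highest mean log2 CPM, for up to 4 called members with the highest and 4 with the lowest change in each comparison, for members called in opposite directions in 2 comparisons, for untested members, for TRIM28, SETDB1 and the called co-repressor genes that changed most. A co-repressor gene that this rule names is not reported here. ZNF10, ZNF133, ZNF202, ZNF225, ZNF226, ZNF274 and ZNF320 were named after their values were seen. The co-repressor list had 40 symbols, of which 39 were in the table. RefSeq GRCh38.p14 gave loci and promoters.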

Additional observations from a re-analysis of the deposited data

Results flagged for a closer look

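A single library stood apart from the other 3 of its ERM group in 4 cases among 76 checked, and chance alone gives about 1 in 20. ZNF20 had 0.138 CPM in enriched replicate 4 and 0 CPM in the others, which is 2 counts. In the inputs ZNF20 had 0.317 CPM in replicate 3 and 0 CPM in the others. SETDB1 had 36.5 CPM in input replicate 4, against 33.4 to 33.8 CPM in the others. ZNF273 had 10.7 CPM in input replicate 2, against 8.89 to 9.04 CPM in the others.

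The test of a difference between arms or constructs set other genes apart. ZNF282 was enriched more with s6G than in unlabelled LMNB1 cells, by 1.51 on the log2 scale. In LMNB1 minus NES, ZNF224 differed by 1.87, the one positive difference called in the family. ZNF91 (-3.60), ZNF254 (-2.74), ZNF460 (-2.63) and ZNF14 (-2.59) had the largest negative differences, and ZNF250 (-1.43), ZNF426 (-1.33) and ZNF227 (-1.18) the smallest that were called.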

How the results depend on the processing

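In no case did a called result change sign under RLE scaling, total counts, no filter, DESeq2, the replicate block or a left-out library. Counts of called members moved by over 1.5 times as follows, with the main count first. With DESeq2 they were 0 and 2 in MITO s6G, 0 and 2 in MITO APEX only, 6 and 10 in LMNB1 s6G, 0 and 6 in LMNB1 APEX only, 0 and 1 in LMNB1 unlabelled, 0 and 1 for MITO s6G inputs, 0 and 2 for LMNB1 s6G inputs, 0 and 3 for LMNB1 s6G minus APEX only, 2 and 4 for LMNB1 s6G minus unlabelled, and 0 and 4 for ERM minus NES. With the replicate block they were 0 and 4 in MITO s6G, 0 and 1 in MITO APEX only, 2 and 6 in MITO unlabelled, 6 and 10 in LMNB1 s6G, 0 and 2 in LMNB1 APEX only, 0 and 6 for MITO s6G minus unlabelled, and 0 and 5 for ERM minus NES. For LMNB1 s6G inputs against APEX-only inputs, whose replicate numbers mark no shared sample, the block gave 25 in place of 0. The share of all genes called with it is not given here, so the 25 cannot be read as particular to the family. Same-numbered inputs of these 2 arms had an r of 0.43. That r was -0.39 and -0.56 for the MITO s6G and s4U inputs. With total counts the counts were 6 and 11 in LMNB1 s6G, 0 and 1 for MITO s6G minus unlabelled, 0 and 1 for LMNB1 s6G minus APEX only and 2 and 4 for LMNB1 s6G minus unlabelled. Without the filter they were 0 and 1 in LMNB1 unlabelled, 0 and 2 for MITO s6G minus unlabelled and 0 and 1 for LMNB1 s6G minus APEX only, and RLE gave 4 in place of 2 in MITO unlabelled. For DESeq2 in LMNB1 s6G and in LMNB1 s6G minus unlabelled, the share of all genes is not given here. Where no share of all genes is given for a setting, its count cannot be read as particular to the family. The cause of these moves was not tested.

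Leaving out 1 library gave 48 to 52 calls in ERM, 45 to 48 in NES, 0 to 2 in LMNB1 s6G, 0 to 5 in LMNB1 unlabelled, 0 to 6 in MITO unlabelled, 0 to 1 for MITO s6G minus unlabelled, 0 to 10 for LMNB1 s6G minus unlabelled, 10 to 16 for LMNB1 minus NES and 0 in the others. The ERM difference in summed level, 2087 CPM, was 1646 CPM with TMM, 1893 CPM without ZNF282, 2060.1 to 2136 CPM without 1 library and 2087 CPM within pairs (the replicate block, added after seeing the data). Total counts moved the median of all genes to 0.43 in ERM and 0.35 in LMNB1 s6G, where that of the family was 1.59 and 0.82. In LMNB1 minus NES these medians were 0.27 and -0.70. Depth limits the MITO unlabelled arm most, where the shallower enriched library held 123341 counts.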
